A study of Homo sapiens with 6 samples.

Results

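The genes examined here are 38 protein-coding genes of DNA replication: the initiator and licensing factors that mark an origin, the helicase that opens it, the polymerases, the clamp and clamp loader that copy the DNA, and the cyclins and factors that time their use at the G1/S border. They were taken by gene symbol from a list of G1/S and replication genes, with no cut on measured values. The list was chosen with earlier results of these data known. All 38 were among the 38170 annotated features of the deposited table. The cells were A549, a line derived from a human lung adenocarcinoma. Total RNA was sequenced in 3 libraries of cells with an empty vector and 3 libraries of cells overexpressing LOC401312, a long non-coding RNA. Both constructs were introduced with piggyBac, a transposon that inserts its cargo into the genome, and the series names CPS1, the first enzyme of the urea cycle, and radiosensitivity as its subjects. All 6 libraries are of the same cell line and no dose or time is given. The promoter of the construct, whether the cells were single clones, and whether the libraries came from separate cultures are not stated, so p-values speak of the scatter among libraries alone, which could be technical. Groups follow the titles. The genotype entries of LOC401312 replicates 2 and 3 name LOC401313 and LOC401314 instead.

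A human cell copies its genome once per division. In G1 the origin recognition complex (ORC), CDC6 and CDT1 load the ring of MCM2 to MCM7 onto DNA in an inactive form. In S phase CDC45 and the GINS complex join the ring and make it an active helicase. Polymerase alpha with primase lays down primers, polymerase epsilon extends the leading strand and polymerase delta the lagging strand. The clamp PCNA, set on DNA by the RFC complex, holds polymerases epsilon and delta in place. Many of these genes are transcribed at the G1/S border by E2F factors, which cyclin D and cyclin E kinases release from RB.

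The libraries held 60971105 to 73994619 counts, and 19620 features had enough counts to be tested. Each pair of libraries of a group differed by more than sampling noise, so each was counted as 1 replicate. The entry that holds LOC401312, listed as STEAP1B, had 9, 11 and 23 counts with vector and 94628, 92527 and 90297 with LOC401312, so every library matched its title. CPS1 had 4355, 3374 and 3630 counts with vector and 8884, 8266 and 8074 with LOC401312, a log2 change of 1.08 (edgeR adjusted p = 1.04e-06). A549 epithelial markers summed to 18594 to 20081 CPM (counts scaled to library size) in the vector libraries and to 17933 to 18796 CPM in the LOC401312 libraries. Markers of placenta summed to 2.07 to 2.64 CPM in the vector libraries, to 2.67 CPM in LOC401312 replicate 1, and to 112 and 100.3 CPM in replicates 2 and 3, which stand apart in this respect, and 8 of the 10 tested were called higher. The sums of urothelial markers were 14.2 to 16.4 CPM against 7.24 to 8.60 CPM, and 3 of 8 tested were called lower. Fibroblast and endothelial markers summed to 40.5 to 70.2 CPM against 23.5 to 26.9 CPM and haematopoietic markers to 10.7 to 17.5 CPM against 11.6 to 13.5 CPM, and no listed marker was at 0 in all libraries. The part of these markers in the results was not tested beyond leaving out replicates 2 and 3, which is given beside each called gene. Proliferation markers summed to 1520 to 1615 CPM in vector and to 1510 to 1539 CPM in LOC401312, and 3 of the 6 were called lower. These were CCNB1, PLK1 and BUB1, which is on chromosome 2, with log2 changes of -0.17, -0.19 and -0.35. TOP2A, MKI67 and AURKA were at 0.02, 0.08 and -0.04 and were not called. Over all tested features, 4.13% were called higher and 4.58% lower.

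Most of the replication genes were at closely similar levels in both groups. All 38 were tested, with 321 to 27233 counts in a library. At an adjusted p under 0.05 (edgeR quasi-likelihood test, Benjamini-Hochberg adjustment over all tested features), ORC2, MCM6 and PRIM2 fell, POLE rose, and 34 did not pass. These 4 are 10.5% of the genes, and 8.72% of all tested features were called in either direction, 4.13% higher and 4.58% lower, so the share is near the background. Among tested features averaging an FPKM of 1 or more, as all 38 do, 12.2% were called. The median log2 change was -0.04 over the 38 genes and -0.00066 over all tested features. The log2 changes of the 34 genes that did not pass lay between -0.33 and 0.24. For 35 of the 38 genes the 95% interval of the log2 change lay within 0.5 of 0, against 51.9% of all tested features. Among the 11665 tested features averaging an FPKM of 1 or more, it did so for 9617. It lay within 0.25 for 28 of the 38 genes, for 5073 of the 19620 tested features and for 5038 of those 11665. Changes of a size beyond those limits are outside the interval for most of the 38 genes. The exceptions at 0.5 were ORC2, POLE2 and CCNE2. The CPM values of the groups did not overlap for 11 genes, 10 lower and 1 higher, against 27.9% of all features, 13.9% lower and 14.0% higher. In RNA of whole cultures, less RNA per cell and fewer cells in the phase that expresses a gene cannot be told apart.

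**Figure D1:**
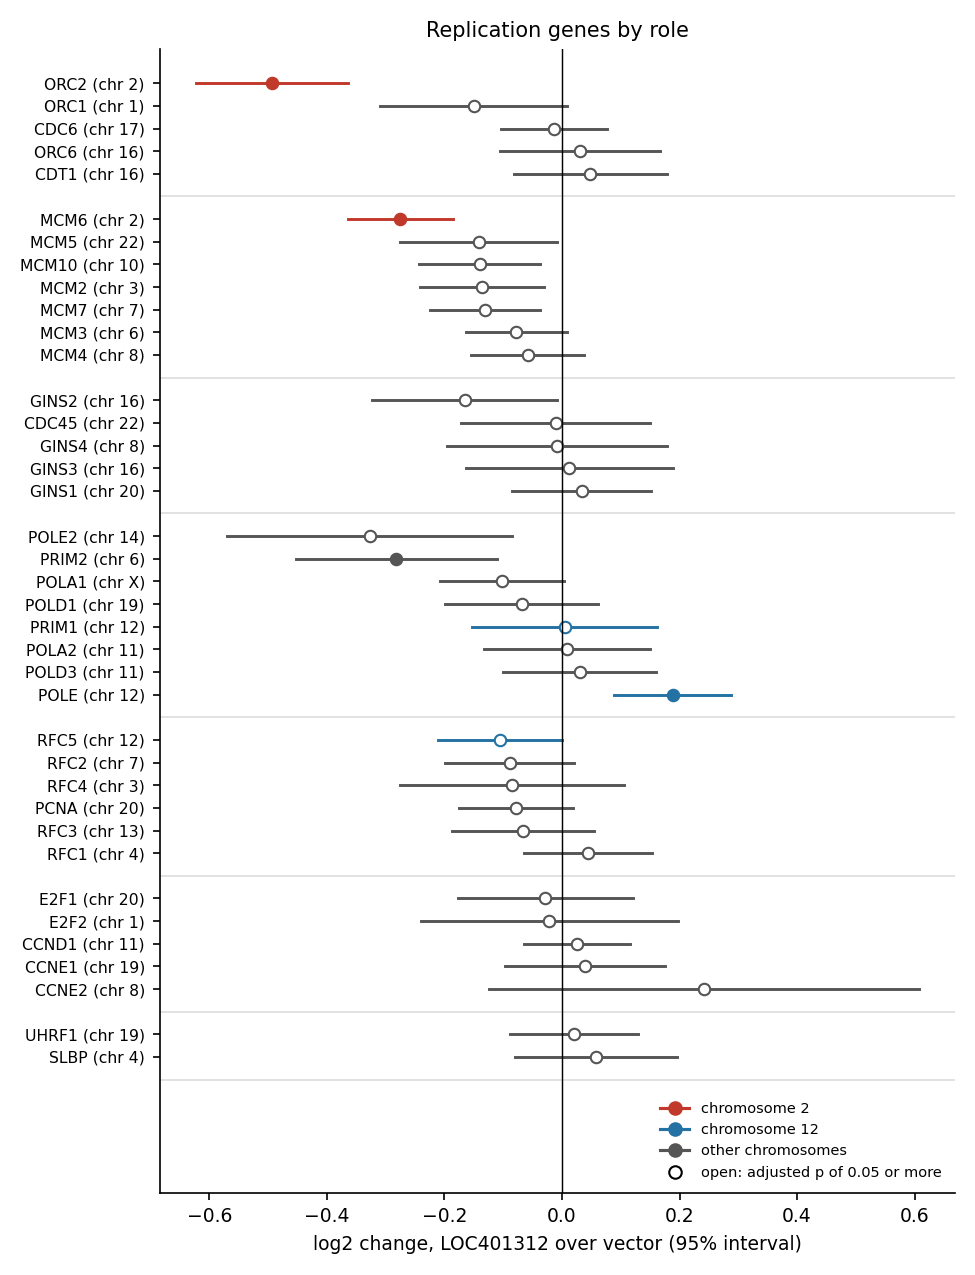
Log2 change of each of the 38 replication genes, LOC401312 over vector, on the horizontal axis, with its 95% interval as a line, ordered by role. Filled points are called at an adjusted p under 0.05 and colours mark chromosomes 2 and 12. Most intervals cross 0, and the 4 filled points are ORC2, MCM6 and PRIM2 to the left of 0 and POLE to the right.

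**Figure D2:**
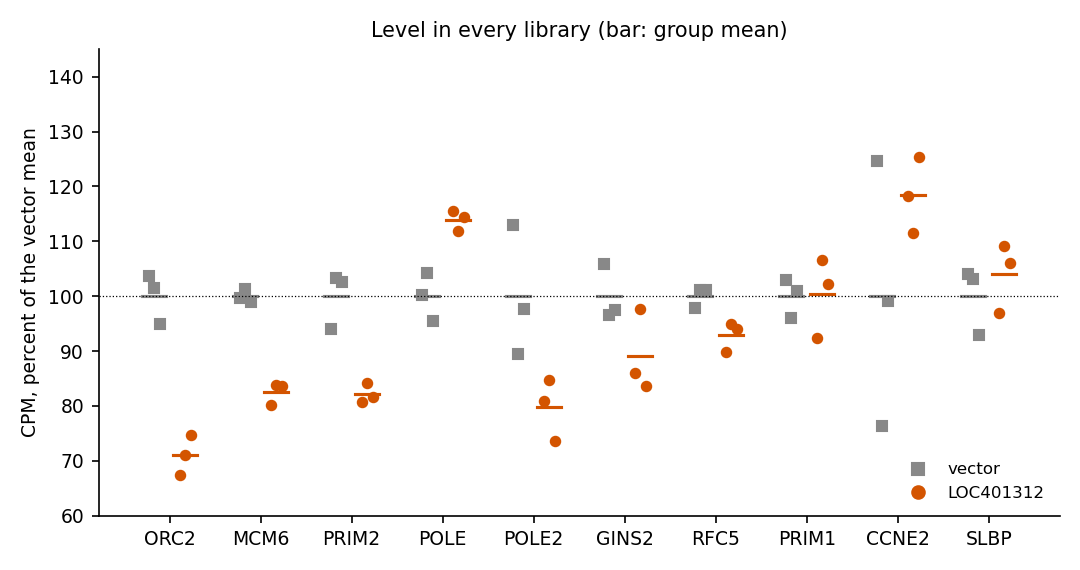
CPM of each library as a percent of the mean of the vector libraries, for the 4 called genes and 6 others, with bars at group means; squares are vector and circles LOC401312. The squares and circles are separate for ORC2, MCM6, PRIM2, POLE, POLE2 and RFC5, and mixed for GINS2, PRIM1, CCNE2 and SLBP.

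The promoters of the called genes are shown because E2F-driven transcription is known from many replication genes, and the windows of the called genes differ in the letters searched. The letters TTTCCCGC, TTTCGCGC, TTTGCCGC and TTTGGCGC, which are forms of the E2F site, were searched on both strands in the 250 bases upstream of each annotated start (RefSeq, GRCh38.p14). RefSeq promoters matched 32 of the 38 genes. Of these, 13 held at least 1 of the 4 forms, or 40.6%, against 761 of 27305 promoters of all genes, or 2.79%. The 160 bases before the start of each called gene follow, 5′ to 3′ on the strand of the gene, with capitals at E2F-type letters. Those of MCM6 are at chr2:135876444-135876603, minus strand, those of POLE at chr12:132687343-132687502, minus strand, those of ORC2 at chr2:200963661-200963820, minus strand, and those of PRIM2 at chr6:57314645-57314804, plus strand.
MCM6: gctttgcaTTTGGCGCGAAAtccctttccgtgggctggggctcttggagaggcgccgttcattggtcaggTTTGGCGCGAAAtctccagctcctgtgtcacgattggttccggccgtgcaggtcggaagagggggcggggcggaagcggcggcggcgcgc
POLE: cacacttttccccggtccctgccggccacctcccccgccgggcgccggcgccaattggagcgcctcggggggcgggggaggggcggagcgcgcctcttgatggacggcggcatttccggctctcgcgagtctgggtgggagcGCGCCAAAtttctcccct
ORC2: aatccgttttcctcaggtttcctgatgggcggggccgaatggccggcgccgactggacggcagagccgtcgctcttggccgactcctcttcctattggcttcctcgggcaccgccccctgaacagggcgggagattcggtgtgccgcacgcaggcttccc
PRIM2: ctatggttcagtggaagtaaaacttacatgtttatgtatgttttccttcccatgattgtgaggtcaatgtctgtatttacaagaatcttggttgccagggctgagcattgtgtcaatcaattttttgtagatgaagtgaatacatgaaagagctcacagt
The run TTTGGCGCGAAA occurs at both capitalised places before MCM6, and it reads TTTGGCGC on the strand of the gene and TTTCGCGC on the other, so the 2 places count as 4 overlapping matches. The POLE window holds 1 match, written GCGCCAAA on its own strand. No match was in the windows of ORC2 or PRIM2, which says only that these letters are not there. Among the 13 genes with a match, MCM6 fell and POLE rose, and the median log2 change was -0.07. Among the 19 without one, ORC2 and PRIM2 fell, none rose, and the median was also -0.07. The CCAAT letters, the core of the NF-Y site, were in 19 of the 32 promoters (59.4%) and in 33.0% of all promoters. The GC box GGGCGG was in 24 of the 32 (75.0%) and in 42.3% of all promoters. These matches describe letters, not bound sites.

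Among the 5 genes of origin recognition and licensing, ORC2 fell and ORC1, ORC6, CDC6 and CDT1 did not pass the test, and the median log2 change of the 5 was -0.01. ORC2 (ENSG00000115942, chr2:200908977-200963660 in GRCh38, minus strand) encodes a core subunit of the complex that binds origins. It had 3920, 3091 and 2974 counts with vector and 2420, 2469 and 2539 with LOC401312, or 52.8, 51.7 and 48.4 CPM with vector and 34.3, 36.2 and 38 CPM with LOC401312. Every LOC401312 library was below every vector library. The mean level was 50.9 ± 2.31 CPM with vector and 36.2 ± 1.86 CPM with LOC401312 (SD, n = 3 each), a log2 change of -0.49 (SE 0.06, 95% interval -0.62 to -0.36, edgeR adjusted p = 0.000754), or 0.71 of the vector level. The call held in all 6 fits that left out 1 library (edgeR adjusted p from 0.00233 to 0.00739) and without LOC401312 replicates 2 and 3 (log2 change -0.57, edgeR adjusted p = 0.0396). Exons of ORC2 share 256 bases, 4.39% of its exon length, with AC005037.1 on the opposite strand, and the strand setting of the counting is not given, so reads there could not be separated.

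The other 4 licensing genes did not pass, and ORC1 lay farthest from 0 among them. ORC1, the ATPase subunit of the complex that is degraded and remade each cycle, had a log2 change of -0.15 (95% interval -0.31 to 0.01, edgeR adjusted p = 0.251), with 2427, 1863 and 1741 counts with vector and 2043, 1876 and 1775 with LOC401312. ORC6, the smallest subunit, was at 0.03 (-0.11 to 0.17). CDC6, which joins ORC to recruit the helicase, was at -0.01 with the interval -0.10 to 0.08 and had 8668, 7005 and 7333 counts with vector and 8007, 7939 and 8010 with LOC401312. CDT1, the helicase's escort, which geminin inhibits after G1, was at 0.05 (-0.08 to 0.18). The LOC401312 and vector values of these 4 genes overlapped.

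Of the 7 helicase genes MCM6 fell, and the other 6 did not pass. MCM6 (ENSG00000076003, chr2:135839626-135876443, minus strand), a subunit of the ring that unwinds DNA, had 9337, 7634 and 7676 counts with vector and 7135, 7217 and 7044 with LOC401312, or 126, 128 and 125 CPM with vector and 101, 106 and 106 CPM with LOC401312. The lowest vector library was above the highest LOC401312 library. The mean level was 126 ± 1.48 CPM with vector and 104 ± 2.6 CPM with LOC401312 (SD, n = 3 each), so MCM6 fell by 0.28 on the log2 scale (SE 0.04, 95% interval -0.37 to -0.19, edgeR adjusted p = 0.0025), to 0.826 of the vector level. No single library ended the call (edgeR adjusted p from 0.00445 to 0.0179), but without LOC401312 replicates 2 and 3 the log2 change of -0.32 had an edgeR adjusted p of 0.103. In the deposited FPKM (counts scaled by the authors for transcript length and library size) the log2 change was -0.15 and did not pass (limma adjusted p = 0.0656). This value includes a shift of that scale, whose median over features averaging at least 5 was 0.109 higher in LOC401312.

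The log2 changes of the other helicase genes were -0.14 for MCM5 (edgeR adjusted p = 0.193), -0.14 for MCM10, which binds the ring at activation (0.095), -0.14 for MCM2 (0.113), -0.13 for MCM7 (0.0863), -0.08 for MCM3 (0.274) and -0.06 for MCM4 (0.488). In the counts all 7 were below 0 with a median of -0.14, although MCM3 and MCM4 were above 0 in the deposited FPKM. An unadjusted p under 0.05 was found for 5 of the 7, all lower, against 22.6% of all features. Of the 19620 tested features, 2233 were lower at that p. Among the 11665 tested features averaging an FPKM of 1 or more, 3409 had such a p, 1853 of them lower. On the deposited FPKM scale MCM3 and MCM4 were at 0.05 and 0.07 and the median of the 7 was -0.01. Over features averaging at least 5, the median of that scale was 0.109 higher in LOC401312 than in vector. The same features had a median of -0.02 in the counts. MCM7 had the smallest adjusted p of the 34 genes that did not pass, with 23784, 20778 and 20645 counts with vector and 21872, 21140 and 19754 with LOC401312, and its groups did not overlap after scaling (320.3, 348 and 336 CPM with vector and 310.1, 309.8 and 296 CPM with LOC401312). DESeq2 called MCM7 (log2 change -0.13, DESeq2 adjusted p = 0.0166) and MCM2 (-0.14, DESeq2 adjusted p = 0.0445) as lower, where 15.8% of features were called, 7.71% higher and 8.05% lower. Without vector replicate 1, MCM7 and MCM5 were called lower (edgeR adjusted p = 0.0309 and 0.0266). MCM7 shares 8.94% and MCM2 23.6% of their exon bases with genes on the opposite strand.

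None of the 5 genes of GINS and CDC45, the factors that turn the loaded ring into a moving helicase, passed the test. GINS2 had the smallest p of the group and 3154, 2318 and 2406 counts with vector and 2436, 2676 and 2240 with LOC401312. Its mean level was 40.1 ± 2.04 CPM with vector and 35.8 ± 3.03 CPM with LOC401312 (SD, n = 3 each), and the groups overlapped, since LOC401312 replicate 2 lay above vector replicates 2 and 3. The log2 change was -0.17 (SE 0.07, edgeR adjusted p = 0.194). GINS1, GINS3 and GINS4 were at 0.03, 0.01 and -0.01, and CDC45 at -0.01 with the interval -0.17 to 0.15. GINS3 and GINS4 share 10.9% and 23.6% of their exon bases with genes on the opposite strand.

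The polymerase genes held 1 call in each direction. PRIM2 (ENSG00000146143, chr6:57314805-57646850, plus strand), the large subunit of the primase that starts each new strand, had 1355, 1199 and 1224 counts with vector and 1105, 1115 and 1058 with LOC401312, or 18.2, 20.1 and 19.9 CPM with vector and 15.7, 16.3 and 15.8 CPM with LOC401312. All 3 LOC401312 libraries were below all vector libraries. The mean level was 19.4 ± 1.0 CPM with vector and 16 ± 0.349 CPM with LOC401312 (SD, n = 3 each). PRIM2 fell by 0.28 on the log2 scale (SE 0.08, 95% interval -0.45 to -0.11), which passed narrowly (edgeR adjusted p = 0.0491). It did not pass with total-count scaling (-0.26, edgeR adjusted p = 0.0639), with no filter on low counts (-0.27, edgeR adjusted p = 0.0779) or in the deposited FPKM (-0.15, limma adjusted p = 0.184). The FPKM value includes the shift of 0.109 of that scale. Leaving out vector replicate 2 or 3 or any LOC401312 library ended the call (edgeR adjusted p up to 0.154), and without LOC401312 replicates 2 and 3 the log2 change was -0.31 (edgeR adjusted p = 0.389). PRIM1, the catalytic subunit, had 2226, 1671 and 1807 counts with vector and 1895, 2116 and 1986 with LOC401312 and a mean level of 29.1 ± 1.04 CPM with vector and 29.2 ± 2.13 CPM with LOC401312 (SD, n = 3 each), with groups that overlapped and a log2 change of 0.01 (SE 0.07, edgeR adjusted p = 0.978). POLA1, the polymerase of the same complex, was at -0.10 (edgeR adjusted p = 0.24) and POLA2, its accessory subunit, at 0.01.

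POLE (ENSG00000177084, chr12:132623753-132687347, minus strand), the catalytic subunit of the leading-strand polymerase, had 7765, 6492 and 6128 counts with vector and 8491, 7963 and 7964 with LOC401312, or 105, 109 and 99.6 CPM with vector and 120.4, 117 and 119 CPM with LOC401312. Each LOC401312 library was above each vector library. The mean level was 104 ± 4.49 CPM with vector and 119 ± 1.89 CPM with LOC401312 (SD, n = 3 each), so POLE rose by 0.19 on the log2 scale (SE 0.04, 95% interval 0.09 to 0.29, edgeR adjusted p = 0.0277), or 1.14-fold. Leaving out vector replicate 3 or any LOC401312 library ended the call (edgeR adjusted p up to 0.122), and without LOC401312 replicates 2 and 3 the log2 change was 0.21 (edgeR adjusted p = 0.316). In the deposited FPKM POLE was at 0.31 (limma adjusted p = 0.0276), with the shift of 0.109 included. POLE2, the second subunit of the same polymerase, had 1057, 674 and 757 counts with vector and 719, 728 and 620 with LOC401312. Its mean level was 12.6 ± 1.5 CPM with vector and 10.1 ± 0.702 CPM with LOC401312 (SD, n = 3 each), with every LOC401312 library below every vector library, and the log2 change of -0.33 (SE 0.11, 95% interval -0.57 to -0.08) did not pass (edgeR adjusted p = 0.0999). POLD1 and POLD3, subunits of the lagging-strand polymerase, were at -0.07 (-0.20 to 0.06) and 0.03 (-0.10 to 0.16).

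None of the 6 genes of the sliding clamp and its loader passed, and their median log2 change was -0.08. PCNA, the ring that tethers polymerases epsilon and delta, had 27233, 23343 and 23126 counts with vector and 26199, 24693 and 22697 with LOC401312. Its mean level was 378 ± 12 CPM with vector and 358 ± 16.1 CPM with LOC401312 (SD, n = 3 each), a log2 change of -0.08 (95% interval -0.18 to 0.02, edgeR adjusted p = 0.336). The annotation names 3 PCNA pseudogenes, 1 of RFC3 and 1 of RFC5, with which reads may be shared. RFC5, a small subunit of the loader on chromosome 12, had 3605, 2999 and 3087 counts with vector and 3145, 3216 and 3116 with LOC401312 and a mean level of 49.6 ± 0.944 CPM with vector and 46.1 ± 1.36 CPM with LOC401312 (SD, n = 3 each). Its groups did not overlap, and the log2 change of -0.11 (SE 0.05, edgeR adjusted p = 0.218) did not pass. In the deposited FPKM the log2 change was 0.02, with the shift of 0.109 included. RFC1, the large subunit, was at 0.04 and RFC2, RFC3 and RFC4 at -0.09, -0.07 and -0.09.

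The genes that time S phase entry did not pass either. CCNE2, a cyclin of the kinase that starts S phase, had the smallest p of the 5 cyclin and E2F genes and the fewest counts of the 38, with 651, 321 and 429 counts with vector and 587, 535 and 589 with LOC401312. The vector libraries spread from 5.37 to 8.77 CPM, so the highest lay above 2 of the 3 LOC401312 libraries, and the mean level was 7.04 ± 1.7 CPM with vector and 8.33 ± 0.491 CPM with LOC401312 (SD, n = 3 each). The log2 change was 0.24 (SE 0.16, 95% interval -0.12 to 0.61, edgeR adjusted p = 0.447), and 37.1% of the exon bases lie opposite other genes, mostly INTS8. CCNE1, the other cyclin E, was at 0.04 (-0.10 to 0.18), and the activator E2F factors E2F1 and E2F2 at -0.03 (-0.18 to 0.12) and -0.02 (-0.24 to 0.20). CCND1, cyclin D1, which opens G1 progression, had a mean level of 299 ± 12.8 CPM with vector and 304 ± 2.22 CPM with LOC401312 (SD, n = 3 each) and a log2 change of 0.03 (-0.06 to 0.12, edgeR adjusted p = 0.779); in the deposited FPKM it was called higher at 0.15 (limma adjusted p = 0.047), with that scale's shift of 0.109 included. SLBP, which binds histone mRNA in S phase, had 4223, 3373 and 3125 counts with vector and 3741, 4074 and 3875 with LOC401312, a mean level of 54.7 ± 3.38 CPM with vector and 56.9 ± 3.47 CPM with LOC401312 (SD, n = 3 each) and a log2 change of 0.06 (SE 0.06, edgeR adjusted p = 0.66). UHRF1, which guides maintenance DNA methylation behind the fork, was at 0.02 (-0.09 to 0.13).

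Of the 4 called genes, 3 lie on chromosomes whose median log2 change was away from 0. Among genes averaging 4 CPM or more, the median log2 change was -0.233 on chromosome 2 (780 genes, 342 called lower and 13 higher) and 0.117 on chromosome 12 (642 genes, 110 called higher and 8 lower). It was -0.086 on chromosome 9, which holds none of the 38 genes, and -0.012 to 0.024 on the rest. ORC2 and MCM6 are on chromosome 2, and POLE, PRIM1 and RFC5 on chromosome 12. Of the 33 genes on other chromosomes, PRIM2 was called lower and none higher, 3.03% of them, against 7.05% of all tested features outside chromosomes 2 and 12. Within 5 Mb on each side of ORC2, 44 of 46 genes were below 0, 19 of them called lower, with a median of -0.22. Around MCM6, 14 of 17 genes were below 0, 3 called lower, with a median of -0.17, and around POLE, 5 of 24 were called higher and 1 lower, with a median of 0.19. Around PRIM2 the median of 17 genes was 0.01. ORC2 was below all but 5.9% of the genes of its chromosome.

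With the median of each chromosome removed from each library, 6.16% of all features were called, 3.48% higher and 2.68% lower. On that scale ORC2 was at -0.27 (edgeR adjusted p = 0.0194) and remained called. MCM6 was at -0.05 (0.56), POLE at 0.07 (0.409) and PRIM2 at -0.27 (0.066), and none of these 3 passed. RFC5, on chromosome 12, was at -0.22 and was called lower (edgeR adjusted p = 0.0196). PRIM1, on the same chromosome, was at -0.11 (0.427), with the sign turned. Whether DNA copy number differed between the groups was not measured here.

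**Figure D3:**
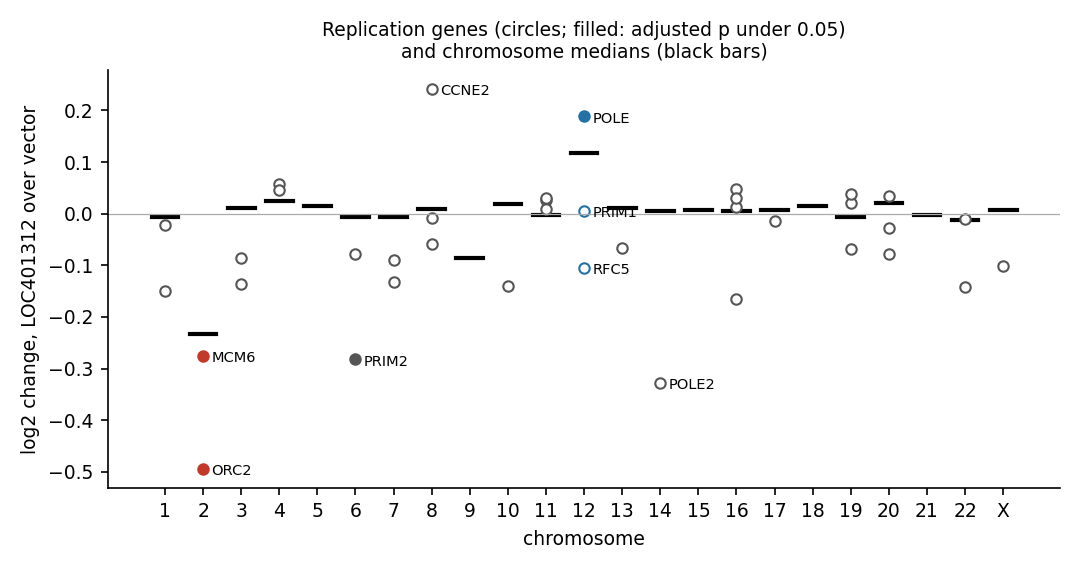
Log2 change of each replication gene (circles, filled where the adjusted p is under 0.05) by chromosome, with the median of all genes of at least 4 CPM on that chromosome as a black bar. MCM6 lies next to the bar of chromosome 2 and ORC2 lies below it, POLE is near the bar of chromosome 12, and PRIM2 is far from that of chromosome 6.

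Subunits of 1 complex can be compared within a library, where scaling cancels. For each of 24 subunits the log2 ratio of its CPM to the mean log2 CPM of the others was formed. In 8 of these ratios the groups did not overlap. The CPM of single features did not overlap for 27.9% of all features, but that share was not computed for ratios. With 3 libraries against 3, the smallest p of the exact two-sided permutation test is 0.1, so none can pass 0.05, and the adjusted p over the 24 ratios was 0.3 for these 8. The ratio of ORC2 to ORC1 and ORC6 was 0.61, 0.61 and 0.61 in the vector libraries and 0.12, 0.13 and 0.27 in the LOC401312 libraries. All LOC401312 libraries were lower, by 0.43 in the mean. The ratio of ORC6 to ORC1 and ORC2 was higher by 0.35, while the log2 change of ORC6 itself was 0.03 and was not called. The ratio of POLE to POLE2 was 2.88, 3.27 and 3.02 in the vector libraries and 3.56, 3.45 and 3.68 in the LOC401312 libraries. It was higher by 0.51 in the mean with no overlap, so these 2 subunits of polymerase epsilon were further apart in LOC401312. Its other subunits, POLE3 and POLE4, were not part of this ratio. Their log2 changes were -0.12 and -0.13 (edgeR adjusted p = 0.181 and 0.565). The ratio of PRIM2 to the other 3 subunits of its complex was lower by 0.25, and that of MCM6 to the rest of the ring by 0.17. The ratios of MCM3, MCM4 and RFC1 were higher by 0.07, 0.09 and 0.13, with MCM4 at 0.03 when set against the median of the other subunits. Ratios of 1 complex share their members and are not independent.

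The share of a subunit in the summed FPKM of its complex shows the same subunits on the scale of RNA per length. ORC2 was 16.9% ± 0.501 (SD, n = 3) in vector and 13% ± 0.674 (SD, n = 3) in LOC401312 of ORC1 to ORC6. ORC4, on the same chromosome, was 7.7% ± 0.131 (SD, n = 3) in vector and 6.89% ± 0.109 (SD, n = 3) in LOC401312. MCM6 was 13.6% ± 0.331 (SD, n = 3) in vector and 12.3% ± 0.331 (SD, n = 3) in LOC401312 of MCM2 to MCM7. The order within the ring was alike in the groups at its ends. MCM7 was the most abundant transcript of the ring in both groups, at 33.9%, and MCM5 the least, at 7.76% ± 0.459 (SD, n = 3) in vector and 7.71% ± 0.321 (SD, n = 3) in LOC401312. PRIM2 was 11.4% ± 0.711 (SD, n = 3) in vector and 9.73% ± 0.301 (SD, n = 3) in LOC401312 of the polymerase alpha and primase complex, and POLE 59.5% ± 3.35 (SD, n = 3) in vector and 67.6% ± 1.76 (SD, n = 3) in LOC401312 of POLE and POLE2. These are shares of RNA per length, not of protein, and a higher share of 1 subunit lowers those of the others.

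**Figure D4:**
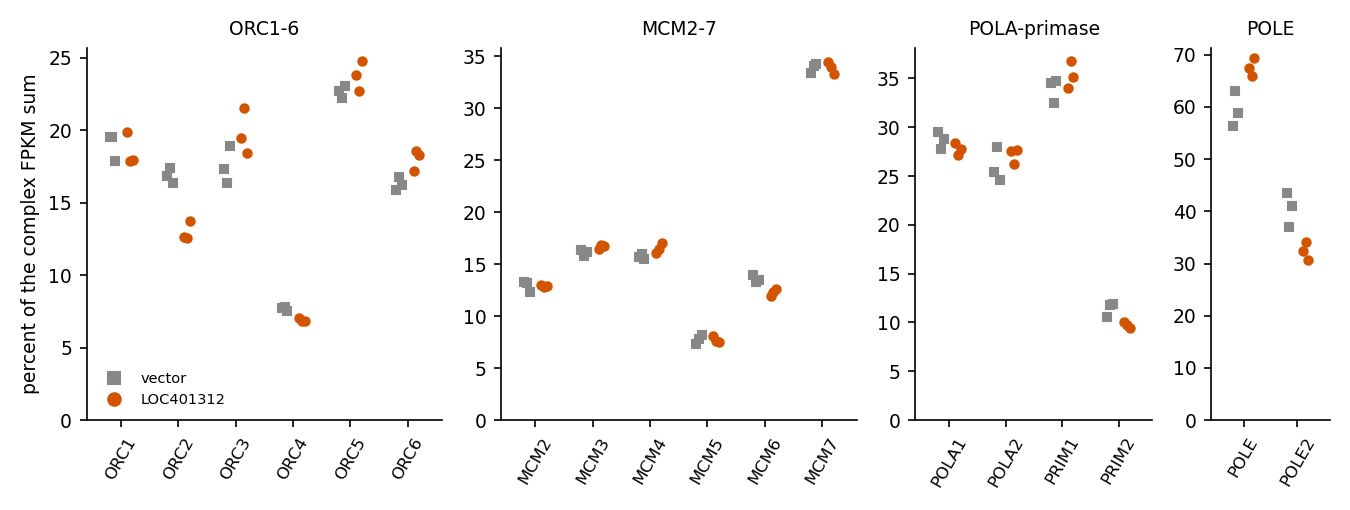
Percent share of each subunit in the summed FPKM of its complex, for ORC, the MCM ring, polymerase alpha with primase, and POLE with POLE2. Squares are vector libraries and circles LOC401312 libraries. ORC2, ORC4, MCM6 and PRIM2 are lower and POLE higher in all 3 LOC401312 libraries, and MCM7 makes up about the same share in both groups.

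Levels per transcript length ranged widely among the 38 genes. PCNA was highest, with a deposited FPKM of 216 ± 5.33 (SD, n = 3) in vector, followed by MCM7 at 61.1 ± 1.17 and CCND1 at 50.3 ± 1.51. MCM3 at 29 ± 0.94 and MCM4 at 28.3 ± 1.07 did not differ beyond their spread. The called genes were spread over the range, with MCM6 among the higher and PRIM2 among the lowest. MCM6 was at 24.5 ± 0.973, ORC2 at 7.01 ± 0.557, POLE at 4.98 ± 0.301 and PRIM2 at 2.74 ± 0.0404. CCNE2 was lowest, at 1.29 ± 0.362, below E2F2 at 2.57 ± 0.176 and PRIM2. The catalytic subunit of primase, PRIM1, was at 8.17 ± 0.576, above PRIM2.

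**Figure D5:**
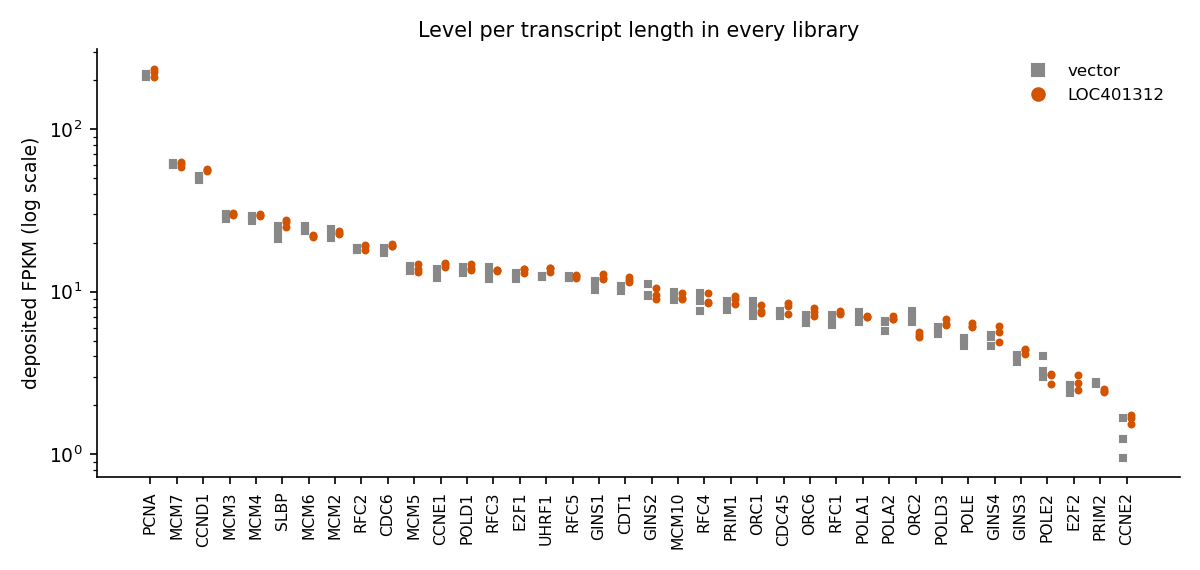
Deposited FPKM of each of the 38 genes in every library, on a log axis, ordered by mean; squares are vector and circles LOC401312. Levels run from 1.47 for CCNE2 to 219.5 for PCNA in the mean of all 6 libraries, and the symbols of the groups lie close together for most genes.

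A second list of 63 replication genes outside the 38 covered the other ORC subunits, firing kinases, checkpoint and fork factors, RPA, ligase, chromatin assembly and other G1/S regulators. Of 62 tested, 5 fell and 0 rose at an adjusted p under 0.05. These 5 are 8.06%, against a background of 4.58% lower and 4.13% higher, or 8.72% in either direction. The median log2 change of the list was -0.02. CCND3, cyclin D3, was the one with the smallest p, with 16019, 14777 and 14728 counts with vector and 10893, 11005 and 10861 with LOC401312. Its mean level was 234 ± 16.4 CPM with vector and 159 ± 4.42 CPM with LOC401312 (SD, n = 3 each). All LOC401312 libraries were below all vector libraries, with a log2 change of -0.55 (SE 0.05, 95% interval -0.67 to -0.43, edgeR adjusted p = 0.000228). The call held when any 1 library was left out (highest edgeR adjusted p 0.00318) and without LOC401312 replicates 2 and 3 (-0.60, 0.033). CCND1, the D-type cyclin among the 38, was at 0.03 in the same fit. CCND2, the remaining D-type cyclin, was not tested and had 913, 4 and 98 counts with vector and 4, 4 and 3 with LOC401312, so its vector libraries differed greatly among themselves; it is named after its values were seen.

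ORC4, also on chromosome 2, had 2763, 2128 and 2101 counts with vector and 2066, 2052 and 1932 with LOC401312. It fell by 0.28 on the log2 scale (SE 0.06, edgeR adjusted p = 0.0156), so 2 of the 6 ORC genes were called lower, both on that chromosome. With chromosome medians removed ORC4 was at -0.05 (edgeR adjusted p = 0.706). ORC3 and ORC5 were at 0.06 and -0.05. RPA3, the smallest subunit of the complex that coats single-stranded DNA, fell by 0.27 (SE 0.06, edgeR adjusted p = 0.0163), while RPA1 and RPA2 were at 0.03 and -0.09 and did not pass. DBF4B, an activator of the CDC7 kinase that fires origins, fell by 0.25 (SE 0.06, edgeR adjusted p = 0.0217), with DBF4 and CDC7 at -0.08 and -0.10. RNASEH2C, a subunit of the enzyme that removes ribonucleotides from DNA, fell by 0.27 (SE 0.07, edgeR adjusted p = 0.0427). Leaving out any LOC401312 library, or replicates 2 and 3 together, ended the calls of these 4 genes. So did vector replicate 2 for ORC4, RPA3 and RNASEH2C, and vector replicate 3 for DBF4B, RPA3 and RNASEH2C, with highest edgeR adjusted p-values of 0.0704 for ORC4, 0.0802 for RPA3, 0.098 for DBF4B and 0.148 for RNASEH2C. Geminin (GMNN), the inhibitor of CDT1, was at -0.13 (edgeR adjusted p = 0.183), CDKN1A, the p53-induced inhibitor of cyclin kinases, at 0.08 (0.389) and TOP2A, which untangles copied DNA, at 0.02 (0.854). In the deposited FPKM, with its shift of 0.109 included, 4 genes of the second list were called, where 9.97% of features were, 8.36% higher and 1.61% lower. CCND3 was lower at -0.42 (limma adjusted p = 0.00181). CDKN1A was higher at 0.20 (limma adjusted p = 0.0189), as were CDK4, a kinase of the D-type cyclins, at 0.23 (0.0319) and CDKN1B, an inhibitor of cyclin kinases, at 0.24 (0.0372). In the counts CDK4 and CDKN1B were at 0.10 and 0.12 and did not pass (edgeR adjusted p = 0.273 and 0.245).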

How the data were processed

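The authors deposited raw counts and FPKM per library for 38170 features, per the file headers. Counts as deposited were whole numbers, and FPKM was scaled by the authors for length and library total. The submitters' processing notes name cutadapt 1.9, FastQC and GRCh38 (hg38). The aligner, counter, annotation and strand mode were not given in the sources used here. Features were tested with edgeR 4.0.16 (quasi-likelihood, TMM, filterByExpr, in R 4.3.3) with no covariate, with Benjamini-Hochberg adjustment over 19620 features and a threshold of 0.05. The biological coefficient of variation was 17%. CPM uses TMM-adjusted library sizes. Subunit ratios had an exact permutation test. Alternatives were DESeq2 1.42.0, limma 3.58.1 on log2(FPKM + 0.1), other scalings and filters, removed chromosome medians (edgeR offsets), a replicate block, and left-out libraries. The edgeR fit was tested on counts simulated with a biological coefficient of variation of 0.05, which is below the 17% of these data. Overlaps with other genes came from GENCODE v29, promoters from RefSeq (GRCh38.p14).

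The genes and lists were chosen with earlier results of these data known. All 38 genes are given; counts, levels and tests are given for those past the threshold, those on chromosomes 2, 9 and 12, and the one with the smallest p of each role. Counts or levels of ORC1, CDC6, MCM7, POLE2, PCNA and CCND1 fall outside this rule and were added after their values were seen. Of the second list, up to 5 past the threshold are given in each direction; others named there were chosen after their values were seen.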

Additional observations from a re-analysis of the deposited data

How the results depend on the processing

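The 4 calls came from small differences at a depth where edgeR's standard errors were 0.04 to 0.16 on the log2 scale. RLE scaling and a mean FPKM of at least 1 gave the same 4 calls. With chromosome medians removed 2 were called (0 higher, 2 lower), the added one being RFC5, with total-count scaling and with no filter 1 higher and 2 lower (PRIM2 lost), with DESeq2 1 higher and 5 lower, and with limma on FPKM 2 higher and 1 lower at each pseudocount (0.1, 1 and 0.01). Leaving out each library in turn gave 2 to 6 calls, 0 to 1 higher and 2 to 5 lower. Without LOC401312 replicates 2 and 3 there was 1 (0 higher, 1 lower), ORC2; the lone LOC401312 library is then assumed to vary like the vector group. The median of the 38 genes was -0.019 with total-count scaling, -0.072 without replicates 2 and 3, and 0.082, 0.069 and 0.084 in log2(FPKM + 0.1), log2(FPKM + 1) and log2(FPKM + 0.01), where that scale's shift of 0.109 is included. Of the 63 other genes, 3 were called with no filter, 3 with chromosome medians removed, 1 without replicates 2 and 3, and 1 to 6 with each library left out.

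Over all features, 1710 were called (811 higher, 899 lower). DESeq2 gave 1248 higher, no filter 577 lower, removed chromosome medians 526 lower, limma 1599, 1584 and 1573 higher and 308, 303 and 297 lower at pseudocounts of 0.1, 1 and 0.01, and the fit without replicates 2 and 3 gave 175 (84 higher, 91 lower). Fits without 1 library gave 832 to 2005 calls, 393 to 963 higher and 439 to 1042 lower.

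Genes close to 0 that were not called in the first fit changed sign. In log2(FPKM + 0.1) they were CDC45 0.11, GINS4 0.11, PCNA 0.047, RFC2 0.037, RFC3 0.061, RFC4 0.041, RFC5 0.020, E2F1 0.099, E2F2 0.096, MCM3 0.048, MCM4 0.068, CDC6 0.11, POLA1 0.025, POLD1 0.059. In log2(FPKM + 1) they were CDC45 0.10, GINS4 0.098, PCNA 0.047, RFC2 0.035, RFC3 0.057, RFC4 0.037, RFC5 0.019, E2F1 0.093, E2F2 0.073, MCM3 0.046, MCM4 0.066, CDC6 0.11, POLA1 0.022, POLD1 0.055. In log2(FPKM + 0.01) they were CDC45 0.11, GINS4 0.12, PCNA 0.047, RFC2 0.037, RFC3 0.061, RFC4 0.041, RFC5 0.020, E2F1 0.10, E2F2 0.099, MCM3 0.048, MCM4 0.068, CDC6 0.11, POLA1 0.025, POLD1 0.059. Total-count scaling gave CDC45 0.014, GINS4 0.017, E2F2 0.0028, CDC6 0.011, no filter GINS4 0.00076, removed chromosome medians CDC45 0.0016, PRIM1 -0.11, and the fit without replicates 2 and 3 CDC45 0.068, GINS1 -0.0070, GINS4 0.11, SLBP -0.042, UHRF1 -0.056, RFC1 -0.010, CCNE1 -0.024, CDT1 -0.021, ORC6 -0.070, POLA2 -0.037, POLD3 -0.021, PRIM1 -0.11. Over the fits without 1 library the ranges were CDC45 -0.050 to 0.049, GINS1 -0.0025 to 0.065, GINS3 -0.060 to 0.061, GINS4 -0.069 to 0.071, UHRF1 -0.0027 to 0.059, CCND1 -0.00068 to 0.061, E2F1 -0.10 to 0.011, E2F2 -0.11 to 0.059, CDC6 -0.034 to 0.0066, ORC6 -0.016 to 0.080, POLA2 -0.040 to 0.068, POLD3 -0.019 to 0.057, PRIM1 -0.040 to 0.063. None of these was called in a setting where its sign changed. With their signs kept, RFC5 was called with chromosome medians removed and CCND1 in the deposited FPKM. The values in log2(FPKM + 0.1) include that scale's shift of 0.109. The cause of these changes was not tested.

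The replicate numbers did not pair the samples: same-numbered libraries had correlations of -0.10, -0.05 and -0.02 in their deviations from the group means, and no library correlated best with its own number. With the number as a replicate block, 1088 features were called (509 higher, 579 lower), 2 of the 38 genes (0 higher, 2 lower, ORC2 and MCM6) and 1 of the 63.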
